A study of Mus musculus with 32 samples.

Results

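Across 32 libraries, 8 genes by which macrophages are commonly recognised or programmed were followed from the monocyte graft to its progeny in colon and ileum. They are Adgre1, Cd68, Mrc1, Cd163, Aif1, Spi1, Maf and Zeb2, chosen by symbol as 8 of the 24411 genes of the first count table and 8 of the 24421 of the second, and all 8 passed the filter on low counts in both fits. The grafted monocytes came from bone marrow of Cx3cr1 GFP/+ CD45.1 donors, in which GFP replaces 1 Cx3cr1 allele, so the graft and every engrafted population share that allele. Their recipients were irradiated wild-type mice carrying CD11c-DTR marrow, whose CD11c+ cells express the diphtheria toxin receptor from the Itgax promoter, and they received toxin before and after the transfer. The graft (n = 3) was sequenced without transfer and received no toxin. The study describes its sort as CD117- CD11b+ CD115+ Ly6C+ cells of intermediate GFP, whereas the labels give CD45+ CD11b+ CD115+ cells with or without Ly6C. Graft-derived cells were taken from colon on days 4 (n = 3), 8 (n = 3) and 12 (n = 4) and from ileum on days 4, 8 and 12 (n = 4 each). By the study's account they were sorted on CD45.1 and GFP, whereas the labels give a gate of CD45+ CD11b+ CD64+ Ly6C- MHCII+. A further 6 libraries, with the same gate in their labels but GFP alone in their titles, came from colon of toxin-treated CX3CR1-DTR chimeras, whose receptor follows the Cx3cr1 promoter. Their labels give no day, and the study lists them as later than day 12. The labels name the strain as C57BL/6J, do not give the number of animals behind a library, and list blood as the organ of the graft and the Itgax-DTR genotype for it, whereas the study describes bone marrow of its donors. In both kinds of host only cells that express the receptor are removed, so epithelium and other cells of the gut wall remain around the sorted population.

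Monocytes enter the gut wall continuously and turn into macrophages there, a path along which Ly6C is lost and scavenging and antigen presentation are gained. Lineage regulators are shared by both stages: Spi1 encodes PU.1, the ETS factor on which all myeloid cells depend, Zeb2 encodes a zinc finger E-box binding repressor needed to maintain macrophage identity in several tissues, and Maf encodes c-MAF, a large MAF factor that operates in mature macrophages. Among the surface proteins, Adgre1 encodes F4/80, an adhesion G protein-coupled receptor, Mrc1 the mannose receptor CD206, and Cd163 the scavenger receptor for complexes of haptoglobin and haemoglobin. Cd68 encodes the lysosomal glycoprotein macrosialin, and Aif1 the calcium-binding, actin-associated protein IBA1.

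The stretches upstream of the start sites are shown for Mrc1 and Cd68, because both carry matches to the core letters bound by PU.1, itself 1 of the 8. Each line gives the 250 bases before the start of the transcript counted by the authors, read from mm9 in the direction of transcription. Capitals mark GAGGAA or its reverse TTCCTC (the PU.1 core).
Mrc1 (mm9 chr2:14150791-14151040, + strand): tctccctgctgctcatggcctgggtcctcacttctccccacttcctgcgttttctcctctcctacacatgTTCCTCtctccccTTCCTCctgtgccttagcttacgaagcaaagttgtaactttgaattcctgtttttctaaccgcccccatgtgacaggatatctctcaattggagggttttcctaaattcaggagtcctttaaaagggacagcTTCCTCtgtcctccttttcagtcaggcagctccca
Cd68 (mm9 chr11:69479673-69479922, - strand): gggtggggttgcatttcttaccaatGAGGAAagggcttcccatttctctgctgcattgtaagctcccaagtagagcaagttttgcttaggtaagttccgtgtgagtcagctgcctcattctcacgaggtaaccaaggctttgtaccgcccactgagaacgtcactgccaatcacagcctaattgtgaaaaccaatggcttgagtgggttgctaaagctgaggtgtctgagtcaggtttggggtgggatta
Of 6 of the genes, Mrc1, Cd68, Zeb2 and Aif1 held the letters GAGGAA on either strand and Cd163 and Maf held none in this window, against 22.947% of 24343 promoters of the same length with a match. Mrc1 held 3 matches, 180, 167 and 35 bases before the start, and Cd68, Zeb2 and Aif1 held 1 each. These are matches of letters, and binding was not measured.

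The genes lie at chr17:57498109-57622952 (Adgre1), chr11:69477715-69479672 (Cd68), chr2:14151041-14253650 (Mrc1), chr6:124254669-124280545 (Cd163), chr17:35307937-35312946 (Aif1), chr2:90936954-90955913 (Spi1), chr8:118227153-118230794 (Maf) and chr2:44839032-44968799 (Zeb2) in mm9, and the counts cover their exons. Mir511 lies within Mrc1 and Mir5129 within Zeb2 on the same strand, whereas Zeb2os overlaps Zeb2 on the other strand, which the strand-specific counting leaves out. Cd163 was counted on 2 different transcripts in the 2 tables.

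Depth and purity come first, because both touch every value that follows. The 25 CD11c-DTR libraries that were tested held 591817 to 5228664 reads on genes, with the fewest in ileum day 4 replicate 3, and the CX3CR1-DTR libraries held 1223772 to 4218027. Normalized reads are counts per 10000000 of these. Summed over 17 pan-leukocyte genes, which white blood cells of any kind express, normalized reads were 163465 to 178128 in the graft, 3727 to 13817 in colon, 10059.7 to 64305 in ileum and 3218 to 9168 in CX3CR1-DTR colon. The 12 epithelial genes ran the other way, with 52.2 to 85.8 in the graft, 174259 to 259939 in colon, 32166 to 226810.0 in ileum and 193839 to 251714 in CX3CR1-DTR colon. All 12 exceeded the graft in each engrafted group, and Krt20, Vil1, Cldn3 and Tspan8 were at 0 in every graft library. The 7 genes of B and plasma cells summed to 347 to 384 in the graft, 972 to 14662 in colon and 6117 to 288715 in ileum. Of the genes of the labelled gate, Fcgr1 (CD64) and Itgam (CD11b) had reads in every library. For Itgam the lowest value in CX3CR1-DTR colon was 8.17 normalized reads, which is 1 count in replicate 1. Ly6c2 read 29409 to 38883 in the graft, at most 274 in colon and at most 2897 in ileum. A library that is mostly RNA of other cells holds a small share of any macrophage gene, and fewer cells of a type and less RNA per cell cannot be told apart in bulk samples.

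**Figure D1:**
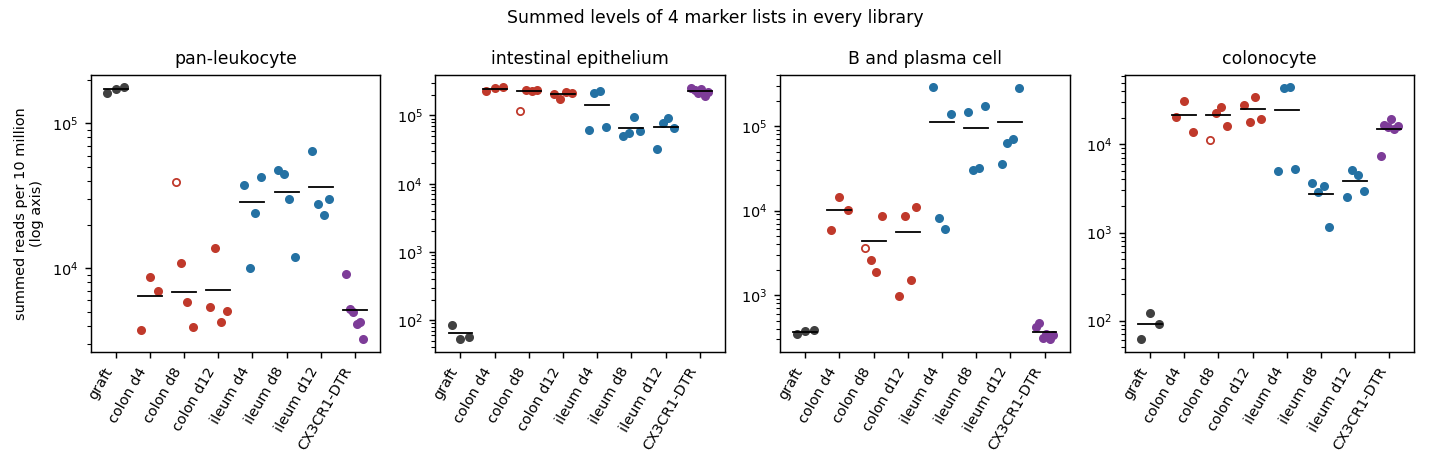
Summed normalized reads (per 10000000 reads on genes, log axis) of 4 marker lists in every library, with 1 point per library, a bar at the group mean and an open point for the colon day 8 library left out of the tests. The 3 graft libraries lie highest for pan-leukocyte genes and lowest for epithelial genes, and 2 of the 4 ileal libraries of day 4 lie above every tested colonic library for the colonocyte genes.

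Ileum day 4 replicates 2 and 3, both of experiment 1 by the dates in the labels, held 44133 and 44608 normalized reads of 6 colonocyte genes, against 4945 and 5219 in replicates 1 and 4 and 13950.0 to 34528 in colon. By this list these libraries go against their label, so the members' fold changes and the list counts for ileum at day 4 are also given without them. The 8 ileal enterocyte genes went with the label on day 4. They summed to 6995 to 31131 in ileum on day 4, against 2794 to 4156 in colon on day 4. Colon on days 8 and 12 held 2090 to 3699 and 2083 to 12108. In the study, 2 ileal samples of day 4 clustered with the colonic ones. The colon day 8 library of experiment 1 (replicate 1) is not among the repeats the study lists and was left out of the tests, and it held 39316 normalized reads of pan-leukocyte genes, more than any other colonic library.

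To read the members against the leukocyte RNA of each library, every value is also given per 1000 reads of the 17 pan-leukocyte genes, and each fit was repeated on that scale. With TMM normalization the median log2 fold change of all 12869 genes tested from the graft to day 4 was 0.26 in both segments. Per pan-leukocyte reads it was 5.00 in colon and 3.21 in ileum, with 95.6% and 90.7% of all genes called higher. Nearly every gene thus rises on that scale. The scale changes only the total by which each library is divided. Reading a member against that shift therefore largely repeats the TMM result and adds no second line of evidence. The denominator may differ too: whether a monocyte and a macrophage hold the same amount of this RNA was not tested. Other white blood cells add to it as well. The 10 genes of T cells and innate lymphoid cells summed to 2.75 to 10.6 normalized reads in the graft, 319 to 574 in colon and 480 to 2487 in ileum. The B and plasma cell genes given above also reached their highest sums in ileum. The part of lymphocytes in the denominator was not tested.

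From the graft to day 4, the 8 genes went in 2 directions. In colon, Spi1, Zeb2, Cd68 and Adgre1 fell (4 of 8, against 23.2% of all genes) and Mrc1 and Maf rose (2 of 8, against 35.8%). In ileum, Spi1, Zeb2 and Cd68 fell (3 of 8, against 19.7%) and Mrc1, Maf, Cd163 and Aif1 rose (4 of 8, against 36.6%). On the pan-leukocyte scale the falls were not seen, and all 8 genes had positive fold changes in both segments, 7 of them called in colon and 6 in ileum. These counts lie near the shares of all genes called higher there, so the values are read against the median shift. Mrc1 (7.12), Cd163 (5.98) and Maf (5.91) lay above the shift of 5.00 in colon, and Mrc1 (6.67), Cd163 (6.42), Maf (5.71) and Aif1 (4.72) above that of 3.21 in ileum. Adgre1, Cd68, Zeb2 and Spi1 lay below it in both segments. These positions largely restate the TMM fit, since the 2 scales differ only in the total of each library. Without the ileal libraries of experiment 1, Mrc1 (4.19), Maf (3.39), Aif1 (2.30) and Zeb2 (-1.57) were called in ileum by TMM (3 of 8 higher, against 32.6% of all genes, and 1 lower, against 16.3%) and the other 4 genes were not. Scaled to pan-leukocyte reads without these libraries, Mrc1 (6.37), Maf (5.59), Aif1 (4.49), Cd163 (4.40) and Adgre1 (1.47) were called higher (5 of 8, against 78.2% of all genes), and Cd68 (0.73), Spi1 (0.65) and Zeb2 (0.63) were not, 0 of 8 were called lower (0.544%), where the median of all genes was 2.40. This fit was added after seeing the data.

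Of the regulators, Spi1 was read at 3930.0, 3828 and 4845 normalized reads in the 3 graft libraries, 169, 364 and 276 in colon on day 4 and 1059, 365, 709.7 and 2077 in ileum on day 4. Every engrafted library lay below every graft library at this time. Spi1 differed from the graft in colon (log2 fold change -3.83, SE 0.68, edgeR adjusted p = 4.27e-05, lower in 3 of 3 libraries) and in ileum (log2 fold change -2.03, SE 0.57, edgeR adjusted p = 0.00429, lower in 4 of 4). The same libraries held, per 1000 pan-leukocyte reads, 24.0, 22.08 and 27.2 in the graft, 45.3, 42.0 and 39.8 in colon and 28.1, 36.2, 29.6 and 48.7 in ileum, and there the engrafted libraries all lay above the graft. The log2 fold changes on that scale were 0.79 (SE 0.50) in colon and 0.55 (SE 0.47) in ileum, neither called. Without the 2 ileal libraries of experiment 1, its log2 fold change in ileum was -1.53 and not called.

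Zeb2, the E-box repressor, ran alongside Spi1. It was read at 2651, 2825 and 2254 normalized reads in the graft, 146, 338 and 259 in colon on day 4 and 947, 206, 828 and 920.3 in ileum on day 4. It fell in colon (log2 fold change -3.24, SE 0.51, edgeR adjusted p = 9.89e-06, lower in 3 of 3) and in ileum (log2 fold change -1.85, SE 0.45, edgeR adjusted p = 0.00115, lower in 4 of 4). Relative to 1000 pan-leukocyte reads it stood at 16.2, 16.3 and 12.7 in the graft, a spread of 37.5 to 39.2 in colon and 20.5 to 34.5 in ileum, with a log2 fold change of 1.36 (SE 0.51) in colon, which was called, and 0.75 (SE 0.48) in ileum, which was not.

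Maf, the large MAF factor, rose, unlike the other 2 regulators. Its normalized reads were 98.04, 121 and 63.4 in the graft, 160.3, 292 and 175 in colon on day 4 and 1326, 433, 490.0 and 815 in ileum on day 4, and no engrafted library overlapped the graft. In ileum the rise was 3.00 on the log2 scale (SE 0.51, edgeR adjusted p = 2.9e-05, higher in 4 of 4). In colon it was smaller (log2 fold change 1.27, SE 0.52, edgeR adjusted p = 0.0386, higher in 3 of 3) and 7 alternatives ended the call. It was lost without graft replicate 1 (1.23), graft replicate 3 (1.07) or colon day 4 replicate 2 (0.93), and with the experiment as a block (0.97, adjusted p = 0.0574, against 1.17e-08 to 0.164 over its alternatives), with library totals (0.93), the equal-variance test (0.61) and all 4 colon libraries of day 8 (1.22). Per 1000 pan-leukocyte reads, Maf went from 0.6, 0.697 and 0.356 in the graft to 43.0, 33.7 and 25.3 in colon and 35.1, 43.1, 20.4 and 19.12 in ileum, log2 fold changes of 5.91 (SE 0.73) and 5.71 (SE 0.71). By that scale colon and ileum overlapped.

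**Figure D2:**
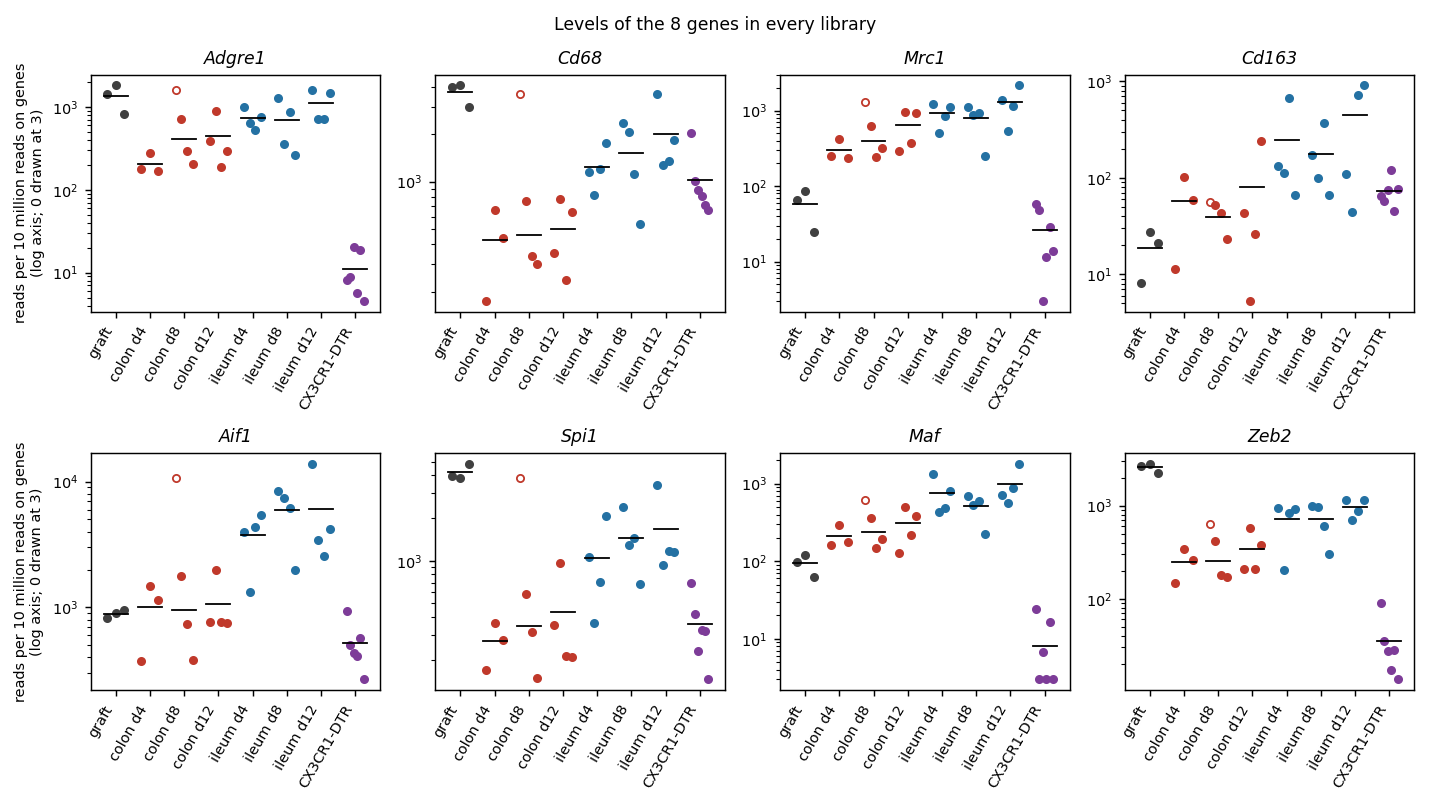
Normalized reads (per 10000000 reads on genes, log axis) of the 8 genes in every library, 1 point per library with a bar at the group mean, graft in grey, colon in red, ileum in blue and CX3CR1-DTR colon in purple. The open point is the colon day 8 library left out of the tests. Spi1, Zeb2, Cd68 and Adgre1 are highest in the graft by group mean, Mrc1, Maf, Cd163 and Aif1 in ileum.

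Adgre1, which encodes F4/80, was read at 1458, 1833 and 817 normalized reads in the graft, 177, 277 and 169 in colon on day 4 and 1003, 639, 524 and 762 in ileum on day 4. All 3 colonic libraries lay below the graft, whereas the ileal ones overlapped it. It fell in colon (log2 fold change -2.58, SE 0.57, edgeR adjusted p = 0.000437, lower in 3 of 3) and was not called in ileum (log2 fold change -0.88, SE 0.50, edgeR adjusted p = 0.137). The ileal difference was called lower with library totals (-1.29), the equal-variance test (-1.14) and the compared groups alone (-0.92), and it was -0.73 and not called without the libraries of experiment 1. Set against 1000 pan-leukocyte reads it read 8.92, 10.6 and 4.59 in the graft against 47.6, 31.9 and 24.3 in colon and 26.6, 63.5, 21.8 and 17.9 in ileum, all above the graft, and both log2 fold changes were called higher, 2.10 (SE 0.60) in colon and 2.02 (SE 0.57) in ileum.

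Mrc1, which encodes the mannose receptor, moved furthest upward of the 8 in both segments. The graft held 16, 31 and 7 counts, or 65.4, 85.2 and 24.6 normalized reads. On day 4 it read 249, 420.1 and 237 in colon and 1213, 513, 845 and 1131 in ileum, every library above the graft. The rise was called in colon (log2 fold change 2.48, SE 0.59, edgeR adjusted p = 0.000976, higher in 3 of 3) and in ileum (log2 fold change 3.96, SE 0.60, edgeR adjusted p = 5.99e-06, higher in 4 of 4), and every alternative fit called both. Per 1000 pan-leukocyte reads it went from 0.4, 0.491 and 0.138 in the graft to 66.8, 48.5 and 34.2 in colon and 32.1, 51.0, 35.2 and 26.5 in ileum.

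Cd163, the haptoglobin-haemoglobin scavenger receptor, was scarce and scattered. The graft held 2, 10 and 6 counts, colon on day 4 held 4, 20 and 18, and ileum on day 4 held 19, 31, 40 and 5. In normalized reads these were 8.17 to 27.5, 11.5 to 102 and 65.7 to 676. The ileal rise was called (log2 fold change 3.58, SE 1.18, edgeR adjusted p = 0.0125, higher in 4 of 4), and it was 2.41 and not called without ileum day 4 replicate 3, 2.26 and not called without both libraries of experiment 1, and 1.23 and not called with the equal-variance test. The colonic change was not called (log2 fold change 1.59, SE 1.24, edgeR adjusted p = 0.278). Both were called on the pan-leukocyte scale, at 5.98 (SE 1.28) and 6.42 (SE 1.28).

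Of the intracellular proteins, Cd68, which encodes macrosialin, read 3971, 4091 and 2989.5 normalized reads in the graft, 175, 661 and 438 in colon on day 4 and 1150.2, 827, 1199.7 and 1748 in ileum on day 4, with no overlap between graft and gut. It fell in colon (log2 fold change -2.97, SE 0.57, edgeR adjusted p = 0.000105, lower in 3 of 3) and in ileum (log2 fold change -1.56, SE 0.50, edgeR adjusted p = 0.00974, lower in 4 of 4). In ileum it was -1.45 and not called without the libraries of experiment 1, and -1.59 and not called with all 4 colon libraries of day 8. Relative to pan-leukocyte reads Cd68 was called higher in both segments (in ileum with those libraries only), 1.53 (SE 0.53) and 1.24 (SE 0.50), with 16.8 to 24.3 in the graft, 46.9 to 76.2 in colon and 30.5 to 82.2 in ileum.

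Aif1, which encodes IBA1, held 817, 899 and 951 normalized reads in the graft, 372, 1491 and 1141 in colon on day 4 and 4005, 1325, 4359 and 5390.1 in ileum on day 4. Colon overlapped the graft and every ileal library lay above it. The colonic change was not called (log2 fold change 0.32, SE 0.66, edgeR adjusted p = 0.692) and was -0.11 without colon day 4 replicate 2, while the ileal rise was called (log2 fold change 2.10, SE 0.66, edgeR adjusted p = 0.00915, higher in 4 of 4), though not with the equal-variance test (1.47). By pan-leukocyte reads the ranges of the 2 segments overlapped, 99.8, 172 and 165 in colon and 106, 132, 182 and 126 in ileum against 5.00, 5.18 and 5.34 in the graft. On that scale the log2 fold changes were 4.81 (SE 0.60) and 4.72 (SE 0.59).

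**Figure D3:**
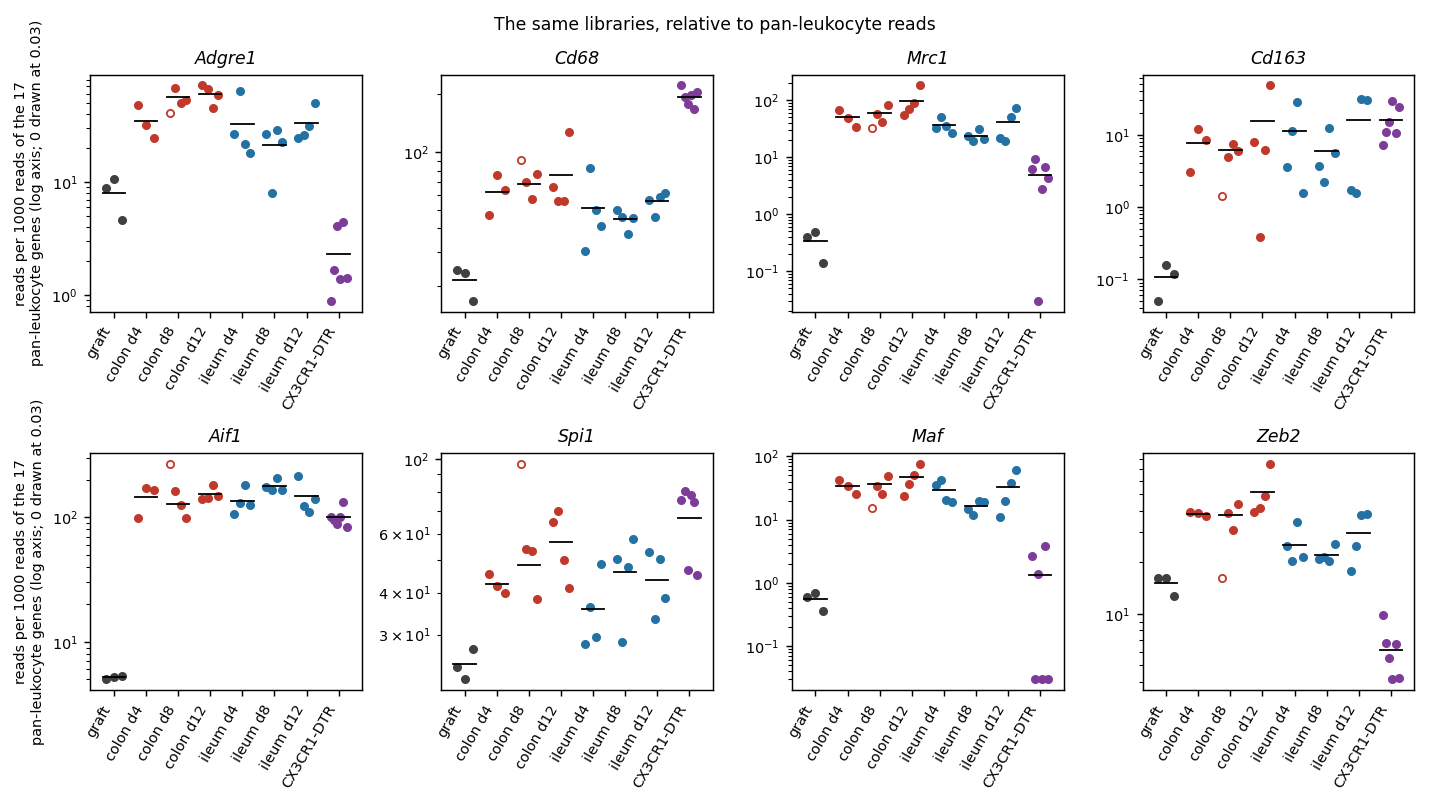
The 8 genes in the same libraries as reads per 1000 reads of the 17 pan-leukocyte genes (log axis), with points, bars and colours as before. Every main engrafted CD11c-DTR library lies above every graft library for Cd68, Mrc1, Cd163, Maf, Zeb2, Aif1 and Spi1, and for Adgre1 1 ileal library of day 8 lies within the range of the graft.

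Within single experiments the day 4 directions held for every member in ileum and for every member but Aif1 in colon. Values are given for Spi1, Zeb2, Mrc1 and Maf. The log2 ratio of mean normalized reads, with 5 added to each mean, of colon day 4 to the graft in experiments 2 and 3 was -4.11 and -3.38 for Spi1, -3.68 and -3.04 for Zeb2, 1.82 and 2.24 for Mrc1 and 0.74 and 1.24 for Maf. In ileum, experiments 1 and 2 gave -3.16 and -1.32 for Spi1, -2.11 and -1.501 for Zeb2, 4.53 and 4.06 for Mrc1 and 2.77 and 3.38 for Maf. The ileal values of experiment 1 rest only on the libraries with high colonocyte genes. Aif1 in colon was -0.11 and 0.73 and changed sign between experiments.

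By day 12 the pattern in colon was as on day 4, with 4 of 8 genes called lower (23.7% of all genes) and 2 called higher (37.8%). In ileum 1 of 8 was called lower, namely Zeb2 (19.4% of all genes), and 4 called higher (36.7%). Spi1 on day 12 read 350.5, 967, 213 and 208 in colon and 3399.7, 933, 1166 and 1150.2 in ileum. Adgre1 read 385, 909, 191 and 296 in colon and 1587, 725, 725 and 1487 in ileum, where it overlapped the graft. Ileum day 12 replicate 1 stood out, with 13903 normalized reads of Aif1 and 64305 of pan-leukocyte genes. Without it, and also with library totals, 3 of 8 were called lower in ileum, Cd68 and Spi1 beside Zeb2, and the same 4 were called higher. Mrc1 read 296, 951, 376 and 920.2 in colon and 1399.7, 529, 1156 and 2167 in ileum, and Maf 128, 497, 215 and 387 and 705, 555, 877 and 1813. With the experiment as a block, Spi1 in ileum on day 12 was called lower beside Zeb2 (-1.45). The same 2 were called lower with the compared groups alone and with the equal-variance test, which called 2 genes higher, Mrc1 and Maf. On the pan-leukocyte scale all 8 were called higher in colon (96.5% of all genes) and 6 in ileum (85.4%).

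Changes with time within the gut were not called. Between days 4 and 12, 0 of 8 were called by edgeR in colon (0.0% of all genes) and 0 of 8 in ileum (2.17%), and 0 of 8 differed in their course between the segments (0.0%). At an unadjusted p under 0.05 there was 1 in colon and 0 in ileum and in the interaction, and DESeq2 called 0 in each. In ileum the fold changes from day 4 to day 12 were positive for all 8, from 0.50 for Maf to 0.97 for Cd163, with standard errors of 0.41 to 0.88. Without the ileal libraries of experiment 1 they ranged from 0.11 for Maf to 2.28 for Cd163, with 0.30 for Zeb2 (from 0.58) and 0.39 for Spi1 (from 0.89), and 0 of 8 were called (0.0% of all genes) and 0 had an unadjusted p under 0.05. On day 8, in the 3 colonic libraries and the 4 ileal ones, Spi1 read 581, 312 and 149 and 2393, 1284, 1439 and 684, Mrc1 623, 245 and 323 and 1120.4, 872, 938 and 252, and Aif1 1765, 738 and 384 and 8354, 7443, 6204 and 1986.

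Between colon and ileum, most calls were made on day 12. All 8 genes had lower normalized reads in colon by group mean, and 7 of 8 were called lower (all but Mrc1, against 16.9% of all genes) and 0 higher (14.6%). Pan-leukocyte genes summed to 4242 to 13817 in these colonic libraries and 23196 to 64305 in the ileal ones, and on the pan-leukocyte scale 0 of 8 were called lower in colon and Mrc1 alone was called higher, at 1.27 (SE 0.52) (82.4% of all genes called either way). Aif1 differed most by TMM (log2 fold change -2.61, SE 0.60, edgeR adjusted p = 0.00248, 761, 1998, 769 and 756 in colon against 13903, 3429, 2581 and 4225 in ileum), without overlap. It differed by -1.64 without ileum day 12 replicate 1. With the equal-variance test Zeb2 alone of the 8 was called, lower in colon (-1.27). On the pan-leukocyte scale the difference in Aif1 was 0.06 (SE 0.44), with 141, 145, 181 and 150.0 in colon and 216, 123, 111 and 141 in ileum.

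Of the other genes on day 12, Cd68 (log2 fold change -2.09, SE 0.48, edgeR adjusted p = 0.00236) and Maf (log2 fold change -1.71, SE 0.42, edgeR adjusted p = 0.00371) were called lower in colon. Zeb2 (log2 fold change -1.55, SE 0.42, edgeR adjusted p = 0.00739), Spi1 (log2 fold change -2.06, SE 0.55, edgeR adjusted p = 0.00664), Adgre1 (log2 fold change -1.44, SE 0.47, edgeR adjusted p = 0.0223) and Cd163 (log2 fold change -2.39, SE 0.87, edgeR adjusted p = 0.0399) were also called. Leaving out ileum day 12 replicate 1 took Spi1 to -1.30 and Adgre1 to -1.14, neither called, and without colon day 12 replicate 2 Spi1 was -2.77. Adgre1 was also not called without colon day 12 replicates 1 (-1.37), 3 (-1.19) or 4 (-1.30) or ileum day 12 replicate 4 (-1.30), or with all 4 colon libraries of day 8 (-1.44). Cd163 rested on few libraries, reading 42.7, 5.29, 26.06 and 243 in colon and 109, 44.1, 715 and 908 in ileum, groups that overlap. It was not called without colon day 12 replicates 1 (-2.16), 2 (-2.05) or 3 (-2.09) or ileum day 12 replicates 3 (-2.15) or 4 (-1.71), or with the compared groups alone (-2.39), and it was -4.003 without colon day 12 replicate 4. Mrc1 (log2 fold change -1.08, SE 0.45, edgeR adjusted p = 0.068) was called lower without colon day 12 replicate 2 (-1.31) or 4 (-1.34) or ileum day 12 replicate 2 (-1.34), with the experiment as a block (-1.05) and by DESeq2 (-1.09). Within experiments 1, 2 and 3 the log2 ratios of colon to ileum were -2.16, -2.57 and -2.47 for Aif1, -1.40, -1.94 and -2.44 for Spi1 and -0.83, -0.94 and -1.23 for Mrc1.

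**Figure D4:**
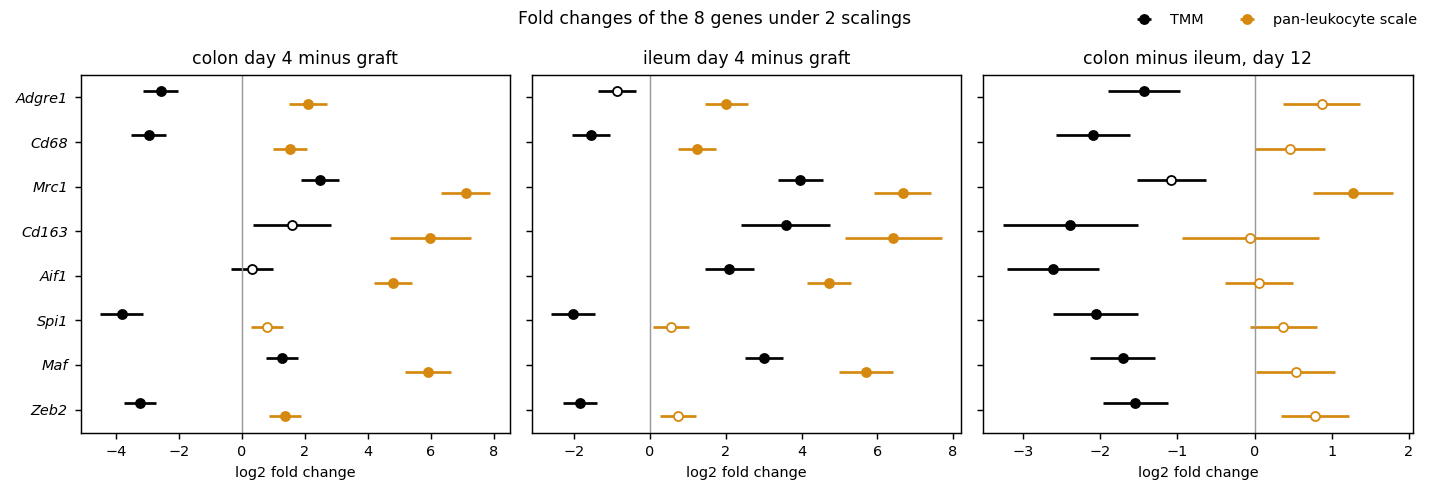
Log2 fold changes of the 8 genes with standard errors in 3 comparisons, with TMM normalization in black and on the pan-leukocyte scale in orange, filled where the edgeR adjusted p was under 0.05. In the graft comparisons the orange points lie above 0 for all 8 genes, while Spi1, Zeb2, Cd68 and Adgre1 lie below 0 in black.

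Earlier days showed the same sign of difference with fewer calls. On day 8, Cd68, Zeb2, Aif1 and Spi1 were called lower in colon (4 of 8, against 17.4% of all genes) and 0 higher (16.1%), Aif1 by -2.65 and Spi1 by -2.08. The count was 2 without colon day 8 replicate 3, 1 without replicate 4 and 0 with the left-out library added. With the experiment as a block it was 5, Maf being added. On the pan-leukocyte scale 2 of 8, Adgre1 and Mrc1, were called higher in colon on day 8, a smaller share than the 75.8% of all genes called either way. On day 4, 0 of 8 were called by edgeR (2.61% of all genes). At an unadjusted p under 0.05 there were 7 of 8, and DESeq2 called 6 of 8. The share of all genes is not given for these 2 counts, so they are not weighed against a background. Without both ileal libraries of experiment 1, edgeR called 6 of 8 lower in colon (12.5% of all genes), all but Cd68 and Cd163, Spi1 by -2.29 and Maf by -2.12. The count was 6 without ileum day 4 replicate 2 alone and 1 without replicate 3. With the experiment as a block 4 were called lower (Adgre1, Mrc1, Maf and Zeb2), again with no share of all genes given. Scaled to pan-leukocyte reads, 0 of 8 were called on day 4 (71.7% of all genes), and 0 of 8 without both libraries (77.5%). Only experiment 2 holds colon and ileum of day 4, and there the log2 ratios of colon to ileum ran from -2.79 to -1.39.

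In colon of CX3CR1-DTR recipients, the 8 genes were set against colon day 12 and the graft of the first experiments, which were counted in another table. Colon day 12 also came, by the study's list, from an earlier day, so the table, the day and the recipient cannot be told apart. Adgre1, Mrc1, Maf, Zeb2 and Aif1 were called lower than in colon day 12 (5 of 8, against 35.4% of all genes) and Cd68 higher (1 of 8, against 25.2%). Counts of Adgre1 were 1, 2, 3, 2, 8 and 1 in the 6 libraries, and normalized reads were 4.55 at the lowest, 8.48 at the median and 20.4 at the highest, below every other library of the series (log2 fold change -5.25, SE 0.51, edgeR adjusted p = 8.64e-07). Maf had 3, 0, 1, 0, 7 and 0 counts (log2 fold change -5.33, SE 0.66, edgeR adjusted p = 8.51e-06) and Mrc1 7, 11, 0, 4, 12 and 3 (log2 fold change -4.66, SE 0.55, edgeR adjusted p = 5.45e-06). Each of the 3 was lower in 6 of 6 libraries, and without CX3CR1-DTR colon replicate 5 Maf was -6.15, and without colon day 12 replicate 2 Adgre1 was -4.65. Zeb2 read 13.7 at the lowest, 27.9 at the median and 89.9 at the highest (log2 fold change -3.44, SE 0.42, edgeR adjusted p = 6.38e-06). Ptprc (CD45), a marker of the labelled gate, was also low, with 13.7 to 34.1 normalized reads against 255 to 1639 in colon on day 12. Other genes of that gate overlapped colon day 12. Fcgr1 read 109 to 360 against 144 to 486, Itgam 8.17 to 228 against 158 to 772, and H2-Ab1 (MHCII) 1324 to 10559 against 5949 to 27481. The sums of the pan-leukocyte genes, of which Ptprc is 1, overlapped too, at 3218 to 9168 against 4242 to 13817.

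Of the other 4 members, Cd68 read 659.9 at the lowest, 845 at the median and 2035 at the highest (log2 fold change 1.00, SE 0.37, edgeR adjusted p = 0.0286), and was not called without colon day 12 replicate 1 (0.85) or 3 (0.77) or with the equal-variance test (0.97). Spi1 read 146 at the lowest, 319.8 at the median and 695 at the highest and was not called (log2 fold change -0.31, SE 0.44, edgeR adjusted p = 0.572), and it was 0.43 without colon day 12 replicate 2. Aif1 read 269 at the lowest, 468 at the median and 932 at the highest (log2 fold change -1.07, SE 0.33, edgeR adjusted p = 0.0123) and was -0.59 and not called without colon day 12 replicate 2, and -0.93 and not called with the equal-variance test. Cd163 read 45.0 at the lowest, 70.2 at the median and 119.6 at the highest and was not called (log2 fold change -0.16, SE 0.65, edgeR adjusted p = 0.846), on a different transcript in each table, although without colon day 12 replicate 4 it was called higher (1.45). Against the graft, Adgre1 (-6.59), Zeb2 (-6.05), Maf (-3.34), Spi1 (-3.29) and Cd68 (-1.58) were called lower in CX3CR1-DTR colon (5 of 8, against 36.0% of all genes) and Cd163 higher (2.17, 1 of 8, against 39.5%). The call of Cd163 was lost without graft replicate 1 (1.86), 2 (2.57) or 3 (2.21) or CX3CR1-DTR colon replicate 4 (1.94) or 6 (2.07), and with library totals (1.89). Aif1 (-0.49) was called lower without CX3CR1-DTR colon replicate 1 (-0.83), and Maf was -4.16 without replicate 5. On the pan-leukocyte scale Cd68, Mrc1, Cd163, Aif1 and Spi1 were called higher than in the graft (5 of 8, against 86.6% of all genes), Cd68 by 3.17 (SE 0.47), where the median of all genes was 5.05, and Adgre1 and Zeb2 lower (2 of 8, against 2.47%), Adgre1 by -1.76 (SE 0.53). Against colon day 12 Aif1 was not called on that scale, at -0.62 (SE 0.33).

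The differences went along with base composition. Over the genes of the second fit, the median log2 fold change of CX3CR1-DTR colon against colon day 12 was higher the higher the GC share of the last 1000 transcript bases. Over 5 equal bins of genes by that share it ran from -2.83 in the lowest bin through -1.01, 0.01 and 0.50 to 0.69 in the highest (96.3% of genes matched a transcript). In the comparison of colon day 12 with the graft it stayed between 0.19 and 0.43. The GC shares were 30.8% for Zeb2, 33.7% for Mrc1, 39.4% for Cd163, 41.1% for Maf, 43.8% for Adgre1, 51.4% for Aif1, 53.0% for Cd68 and 61.5% for Spi1. With an offset for GC, added after seeing the data, 4 of 8 were called (51.1% of all genes), all lower in CX3CR1-DTR colon. Adgre1 was then -4.44, Maf -3.92, Mrc1 -1.76 and Aif1 -1.42, while Zeb2 was -0.08 and Cd68 0.50, neither called. Against the graft Mrc1 changed sign with the offset, from -0.94 to 1.29, not called in either fit. Aif1 became a called fall, from -0.49 to -1.22 (edgeR adjusted p = 0.0114), Zeb2 went from -6.05 to -3.48, and Adgre1 (-6.23), Spi1 (-4.49), Cd68 (-2.51) and Maf (-2.42) stayed called lower and Cd163 (3.55) higher. That made 6 of 8 lower, against 36.3% of all genes, and 1 higher, against 36.4%. What sets the trend with GC was not tested.

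**Figure D5:**
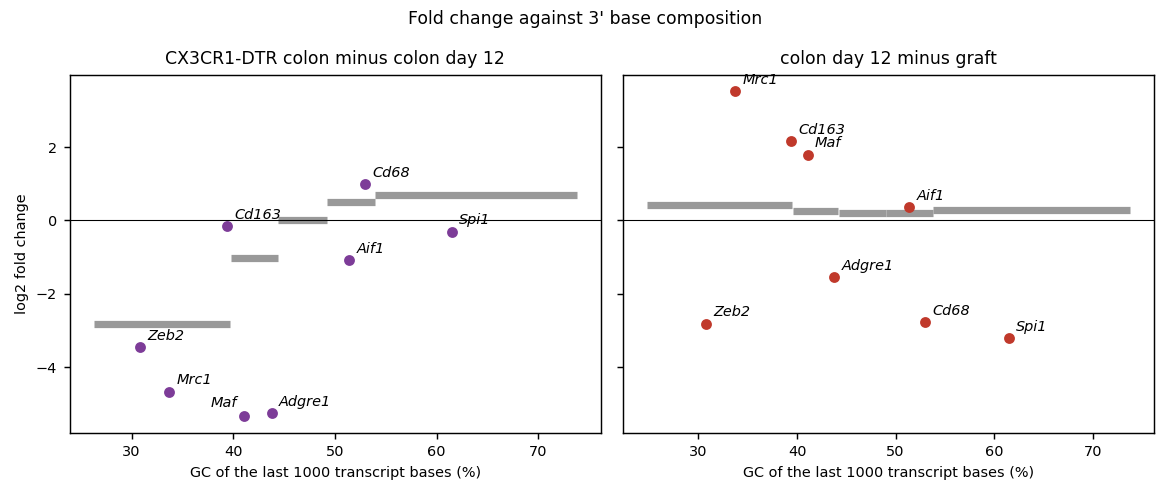
Log2 fold change (TMM) of the 8 genes against the GC share of the last 1000 transcript bases, with grey bars for the median of all genes in each of 5 bins by GC. The grey bars climb from -2.83 to 0.69 for CX3CR1-DTR colon against colon day 12 and stay between 0.19 and 0.43 for colon day 12 against the graft.

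Genes around the members were read from lists of their pathways. Of 14 known PU.1 targets, 12 fell and 0 rose from the graft to colon on day 4 (median log2 fold change -3.49, against 0.26 over all genes), and 9 fell and 1 rose in ileum (median -1.82). Of all genes, 23.2% fell and 35.8% rose in colon and 19.7% fell and 36.6% rose in ileum. Without the ileal libraries of experiment 1, 6 of the 14 fell and 1 rose in ileum, against 16.3% and 32.6% of all genes. Cybb, the catalytic subunit of the phagocyte oxidase, had log2 fold changes of -5.05 in colon and -2.94 in ileum, both called. Fcgr3, an activating Fc receptor, had -3.18 and -1.12, and Csf1r, the receptor for macrophage colony-stimulating factor, -2.28 and -0.46, and these were called in colon but not in ileum. Scaled to pan-leukocyte reads, of which Itgb2 is itself a gene, 7 of the 14 were called higher in colon (95.6% of all genes) and 6 in ileum (90.7%, or 5, against 78.2%, without the libraries of experiment 1), with medians of 1.13 and 0.93 against 5.00 and 3.21 over all genes. Between the segments on day 12, 12 of the 14 were lower in colon (16.9% of all genes) and 0 higher (14.6%) by TMM (median -2.04, against -0.02), and 3 higher (81.3%) and 0 lower (1.1%) on the pan-leukocyte scale.

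Of 26 tested of 27 other myeloid transcription factors, 6 rose and 10 fell in colon on day 4 and 9 rose and 10 fell in ileum (medians -0.65 and 0.17), against 35.8% rising and 23.2% falling of all genes in colon and 36.6% and 19.7% in ileum. Without the libraries of experiment 1 it was 9 rising and 7 falling in ileum. Irf8, a regulator of the monocyte and dendritic lineages, had log2 fold changes of -2.36 in colon and -1.84 in ileum, both called. Klf4, used by monocytes and also by epithelium, had 1.27 in colon, called, and 0.68 in ileum, not called, which was -0.54 and not called without those libraries. Nr4a1, needed for Ly6C-low monocytes, had 0.89 in colon, not called, and 1.66 in ileum, called. Among 7 tested MAF and BACH family genes and their partner Nfe2l2, 2 rose and 2 fell in colon and 4 rose and 2 fell in ileum, 3 and 2 without those libraries. Mafg, a small MAF protein, had -1.82 and -1.04, both called. By pan-leukocyte reads 22 of 26 myeloid factors were called higher in colon and 20 in ileum and 0 lower, and 7 of 7 MAF and BACH genes higher in each segment, where 95.6% of all genes were called higher in colon and 90.7% in ileum. Without those libraries the ileal counts were 16 and 5, against 78.2%.

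Of the lysosomal and endosomal genes, the compartment in which Cd68 resides, 12 of 21 fell and 3 rose in colon on day 4 (median -1.01), and 8 fell and 4 rose in ileum (median -0.50), against 23.2% falling and 35.8% rising of all genes in colon and 19.7% and 36.6% in ileum. Without the libraries of experiment 1, 6 fell and 4 rose in ileum. The log2 fold changes in colon and ileum were -3.21 and -1.73 for Psap, the precursor of the saposins, -2.29 and -1.29 for Ctss, a cathepsin of antigen-presenting cells, and -1.43 and -1.22 for Lamp1, a lysosomal membrane protein, all called, though Ctss in ileum was -1.10 and not called without those libraries. Relative to pan-leukocyte reads 21 of 21 were called higher in colon (95.6% of all genes) and 19 in ileum (90.7%), or 14 in ileum without those libraries (78.2%). Of 22 surface and uptake receptors, 19 were tested, of which 6 rose and 9 fell in colon on day 4 and 7 rose and 2 fell in ileum, or 7 and 3 without those libraries, against the shares of all genes given above. Stab1, a scavenger receptor of macrophages and sinusoidal endothelium, rose in both segments, from a mean of 5.47 normalized reads in the graft, at most 3 counts in a library, to 449 in colon and 2212 in ileum. Itgam (CD11b) had log2 fold changes of -4.33 and -2.56, both called. Cx3cr1, the fractalkine receptor, had -1.82 in colon, called, and 0.40 in ileum, not called. Endothelial genes summed to 110.3 to 169 in the graft, 495 to 1212 in colon and 404 to 7056 in ileum on day 4, and the part of endothelium in Stab1 was not tested. Between segments on day 12, 12 of 19 receptors and 13 of 21 lysosomal genes were lower in colon (16.9% of all genes), and 0 and 0 on the pan-leukocyte scale (1.1%).

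Across the 25 CD11c-DTR libraries, 4 genes tracked the summed pan-leukocyte reads, with Pearson correlations on log2(normalized reads + 50) of 0.97 for Zeb2, 0.97 for Spi1, 0.96 for Cd68 and 0.82 for Adgre1. For Aif1 it was 0.48, for Maf 0.12, for Cd163 0.08 and for Mrc1 -0.12. In the 22 engrafted libraries alone it was 0.78 for Mrc1, 0.82 for Maf, 0.98 for Aif1, the highest of the 8, and 0.47 for Cd163, the lowest of the 8. There it was 0.96 for Spi1, 0.95 for Cd68, 0.94 for Zeb2 and 0.81 for Adgre1. Without the graft the first 4 genes were thus not set apart from the others. Points within a group share tissue, depth and leukocyte share, so these values describe the libraries. Mrc1 and Maf correlated with each other at 0.94 over all libraries and 0.94 without the graft, and Spi1 with Zeb2 at 0.93 and 0.90. The 3 genes most like Spi1 were Dok3 (r = 0.98), Tyrobp (r = 0.98) and Cd52 (r = 0.98), and those most like Zeb2 were Vsir (r = 0.98), Laptm5 (r = 0.97) and Dock10 (r = 0.97). For Maf they were Mrc1 (r = 0.94), Igf1 (r = 0.91) and Cp (r = 0.90), and for Mrc1 Ccl12 (r = 0.95), C3ar1 (r = 0.95) and Clec4n (r = 0.94). For Cd68 they were Fcer1g (r = 0.97), Tyrobp (r = 0.97) and Plekho2 (r = 0.96), for Adgre1 Slc11a1 (r = 0.92), Fcgr3 (r = 0.91) and Ms4a6b (r = 0.91), for Aif1 Ccdc102a (r = 0.94), Isg15 (r = 0.94) and Fam234b (r = 0.94) and for Cd163 Evc (r = 0.81), Fcna (r = 0.81) and Acot2 (r = 0.80). Laptm5 and Cd52 are themselves among the 17 pan-leukocyte genes. Without the graft libraries the nearest were C1qb for Aif1, Csf2rb for Spi1 and Maf for Mrc1, and 0 of the 3 nearest genes were shared with the first ranking for each of these.

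Ordered by mean normalized reads, the graft stood first for Spi1, at 4201 ± 560.3 (SD, n = 3), above ileum on day 12 at 1662 ± 1163 (SD, n = 4) without overlap, and for Zeb2, at 2577 ± 293 (SD, n = 3) above 967 ± 222 (SD, n = 4), again without overlap. It also stood first for Cd68, at 3684 ± 604 (SD, n = 3) above 2016 ± 1095 (SD, n = 4), and for Adgre1, at 1369 ± 514 (SD, n = 3) above 1131 ± 471 (SD, n = 4), and for these 2 the neighbours overlapped. Ileum on day 12 stood first for the other 4, at 1313 ± 677 (SD, n = 4) for Mrc1, 987 ± 566 (SD, n = 4) for Maf, 6035 ± 5288 (SD, n = 4) for Aif1 and 444 ± 432 (SD, n = 4) for Cd163. Each of these overlapped the next ileal group. In the order for Mrc1, Maf and Zeb2, the 3 colonic groups followed the 3 ileal ones, neighbours overlapping throughout, and CX3CR1-DTR colon came last for Adgre1, Mrc1, Maf, Zeb2 and Aif1. By pan-leukocyte reads the order differed, and colon on day 12 led for Adgre1, Mrc1, Maf and Zeb2, and CX3CR1-DTR colon for Cd68, at 194 ± 19.3 (SD, n = 6) against 76.1 ± 34.4 (SD, n = 4) in colon on day 12, without overlap. CX3CR1-DTR colon also led for Spi1 (mean 66.9) and Cd163 (mean 16.1), overlapping the next group. Neither order allows for the other count table or the GC trend. With the GC offset Cd68 was 0.50 and Zeb2 -0.08 against colon day 12, neither called.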

How the data were processed

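Libraries of sorted cells were prepared with a variant of MARS-seq that captures transcript 3′ ends. The authors aligned reads to mm9 with hisat 0.1.6, kept unique alignments, counted sense-strand reads on exons with HOMER (1 transcript per gene) and deposited raw counts without normalization. A collapse of molecular identifiers is not given in the sources used here, so counts are taken as reads and floors cover counting error only. In the second table, 52 columns without a name were not used. Normalized reads are counts per 10000000 reads on genes, and 3 counts equal 5.74 to 50.7 of them in the 25 CD11c-DTR libraries tested.

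The quasi-likelihood F test of edgeR 4.0.16 (R 4.3.3, TMM factors) was run on counts of genes that reached 50 normalized reads in 3 or more libraries, namely 12869 genes in a fit of the graft, colon and ileum and 11718 in a fit of the graft, colon day 12 and CX3CR1-DTR colon. A gene was called at a Benjamini-Hochberg adjusted p under 0.05, and SE was derived from the fold change and the F statistic. For CX3CR1-DTR colon the study counts fewer repeats than the 6 libraries deposited, without naming them, so all 6 were used. The members and all lists were chosen with earlier results of these data known. The text names the 8 members, the 4 genes of each pathway or family list with the highest mean (fewer where a sentence takes up some of them), and the 3 genes most like each member.

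Alternatives were DESeq2 1.42.0, an equal-variance test per gene, other scalings and filters, other sets of libraries and the experiment as a block. Experiments were read from the dates in the labels, with 1 label dated a year earlier read as a slip. Deviations from group means correlated at a median of 0.024 over 96 pairs of libraries of 1 experiment and -0.014 over 171 pairs of different ones. Chi-square tests over 51 pairs of libraries within groups gave at least 4.73 per degree of freedom, so none was a duplicate. Labels do not say whether libraries of a group came from separate animals, so p-values measure the spread between libraries. On simulated counts for the comparison of the graft with colon day 4 (12869 genes), 51% of genes changed by 1.5 and 94% of those changed by 3 on the log2 scale were recovered. Promoter letters were read from mm9 (NCBIM37) and GC shares from GENCODE vM1 transcripts, and some genes and promoters are not reported here.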

Additional observations from a re-analysis of the deposited data

Results flagged for a closer look

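In groups of 4 to 10 libraries, the highest or lowest library was tested against the rest with Dixon's rule, which chance alone meets in about 1 in 20 groups. It was met in 8 of 40 cases. CX3CR1-DTR colon replicate 1 held 2035 normalized reads of Cd68 and 89.9 of Zeb2, and it also had the highest sum of pan-leukocyte genes of its group, 9168. Colon day 12 replicate 4 held 243 of Cd163 and colon day 12 replicate 2 1998 of Aif1. Ileum day 4 replicate 3 held 676 of Cd163 and replicate 2, the lowest, 206 of Zeb2, and both of these libraries are the ones with colonocyte genes above every tested colonic library. Ileum day 12 replicate 1 held 13903 of Aif1 and 3399.7 of Spi1, with 64305 normalized reads of pan-leukocyte genes against 23196 to 29912 in the other libraries of its group.

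The change from the graft to day 12 differed between colon and ileum for 7 of the 8 genes by edgeR with TMM, and these differences share the graft, so they equal the comparison of colon with ileum on day 12. They were -1.71 for Maf, -2.09 for Cd68, -1.44 for Adgre1, -1.55 for Zeb2, -2.39 for Cd163, -2.06 for Spi1 and -2.61 for Aif1. On the pan-leukocyte scale none of the 7 was called, nor did any of them have an unadjusted p under 0.05. Of all genes, 81.3% were called higher in colon on that scale and 1.1% lower.

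The colon day 8 library that was left out of the tests (replicate 1, 889451 reads on genes) held more than every graft library of 4 genes, with 1304 normalized reads of Mrc1, 56.2 of Cd163, 607 of Maf and 10647 of Aif1. Per 1000 pan-leukocyte reads it held 33.2 of Mrc1 and 271 of Aif1, against 41.7 to 83.0 and 98.7 to 164 in the other 3 colonic libraries of day 8. Its epithelial genes summed to 115285 normalized reads, against 226983 to 234623 in those.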

How the results depend on the processing

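Counts of members called in either direction stayed within 1.5 times the reported count in 211 of 226 alternative fits over the 12 comparisons. These counts ignore direction. Adgre1, for instance, was called from the graft to colon on day 4 both by TMM (-2.58) and on the pan-leukocyte scale (2.10). For colon over time and the interaction, 0.0% of all genes were called, so counts there had little room to move. From the graft to ileum on day 4 the count was 4 without the ileal libraries of experiment 1. For colon against ileum on day 4 it was 6 with DESeq2, 1 without a filter on low counts, 1 with a filter of 100 normalized reads, 6 without the ileal libraries of experiment 1, 4 with the experiment as a replicate block, and 0 to 6 when 1 library was left out. On day 8 it was 2 on the pan-leukocyte scale, 0 with the equal-variance test, 0 with all 4 colon libraries, and 1 to 5 with 1 library left out. On day 12 it was 1 on the pan-leukocyte scale and 1 with the equal-variance test. The replicate block changed no count from the graft or over time by more than 1.5 times, and its values where it changes a call stand beside the results.

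Of the fold changes reported, the pan-leukocyte scale reversed the most. It divides each library by its pan-leukocyte reads (normalized, 163465 to 178128 in the graft and 3727 to 8668 in colon on day 4). From the graft to colon on day 4 it gave 2.10 for Adgre1, 1.53 for Cd68, 1.36 for Zeb2 and 0.79 for Spi1, and to ileum 2.02, 1.24, 0.75 and 0.55 for the same genes, or 1.47, 0.73, 0.63 and 0.65 without the ileal libraries of experiment 1. For colon against ileum on day 12 it gave 0.87 for Adgre1, 0.46 for Cd68, 1.27 for Mrc1, 0.53 for Maf, 0.78 for Zeb2, 0.0601 for Aif1 and 0.37 for Spi1. For CX3CR1-DTR colon against the graft it gave 3.17 for Cd68, 3.84 for Mrc1, 1.42 for Maf, 4.28 for Aif1 and 1.46 for Spi1, and against colon day 12 0.0542 for Cd163 and 0.24 for Spi1. Aif1 from the graft to colon on day 4 also reversed with library totals (-0.0335), the equal-variance test (-0.19) and ran from -0.11 to 0.73 with 1 library left out. With the GC offset Mrc1 against the graft became 1.29 and Cd163 against colon day 12 1.71, and Cd163 was 0.23 with the equal-variance test and -0.50 to 1.45 with 1 library left out. Spi1 against colon day 12 was -0.54 to 0.43 in the same way. The causes of these reversals were not tested. Of the other alternative results, 633 were unchanged in direction and side of the threshold or, for a ranking of like genes, in its genes, 48 lost the call and 12 gained it. Few counts limit Cd163 throughout and Adgre1, Maf and Mrc1 in CX3CR1-DTR colon. Genes most like a member changed with the measure: in 15 of 16 rankings under another measure at least 1 of the 3 genes was replaced.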

Other observations

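Genes of alternative activation, a state named for the response of macrophages to IL-4 and often read together with Mrc1, moved in both directions. Of 13 tested of 14, 7 rose and 5 fell from the graft to colon on day 4, and 8 rose and 2 fell in ileum (edgeR, TMM), against 35.8% rising and 23.2% falling of all genes in colon and 36.6% and 19.7% in ileum. Without the ileal libraries of experiment 1, 7 rose and 3 fell in ileum, against 32.6% and 16.3%. Stab1 had 5.47 mean normalized reads in the graft, 449 in colon and 2212 in ileum on day 4, and Tgm2, a transglutaminase, 17.7, 472 and 1613. Chil3, a chitinase-like protein abundant in marrow monocytes, had 13155 in the graft, 7.06 in colon and 57.5 in ileum, and F13a1, a subunit of coagulation factor XIII, 17034, 89.9 and 178. F13a1 was lower on the pan-leukocyte scale too, with log2 fold changes of -2.73 in colon and -3.72 in ileum against medians of 5.00 and 3.21 over all genes.

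Relatives of the members in sequence were also read. From the graft to day 4, Adgre5 (CD97) had log2 fold changes of -3.13 in colon and -2.35 in ileum, both called, and Adgre4 -3.53, called, and -0.84, not called. Of 3 relatives of Mrc1, Pla2r1 alone passed the filter on low counts, and it was called higher in both segments, at 0 mean normalized reads in the graft, 41.3 in colon and 66.4 in ileum. Of 5 tested of 7 scavenger receptor cysteine-rich genes, 2 rose and 1 fell in colon and 4 rose and 0 fell in ileum, with or without the libraries of experiment 1. Of all genes, 35.8% rose and 23.2% fell in colon. In ileum it was 36.6% and 19.7%, or 32.6% and 16.3% without those libraries. The family includes Dmbt1, an epithelial secreted protein (0.916 in the graft, 23366 in colon and 24184 in ileum), and Cd6, a receptor of lymphocytes (2.72, 17.8 and 305). Msr1, the macrophage scavenger receptor, had -1.99 in colon, called, and 0.21 in ileum, not called.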
